A study of Bos taurus and other sequences with 9 samples.

Results

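The tRNA-Gly loci are the genome positions in the small ncRNA tables that are classed as tRNA and whose name gives glycine as the amino acid. The tables held 31 of them among 530 tRNA loci and 1361 small ncRNA loci in all. By anticodon, 15 were GlyGCC, 7 were GlyCCC and 9 were GlyTCC. The name tRNA19-GlyGCC was used for a locus on chromosome 16 and for another on chromosome 2, and these were kept apart. RNA was isolated from culture media with a kit for extracellular vesicles, and 9 samples of 5 media were sequenced. Whether the RNA lay inside vesicles was not shown in the study, whose authors also expected RNA from outside vesicles in these samples. FBS-1 was medium with fetal bovine serum from Sigma-Aldrich and FBS-2 medium with serum from Gibco. UC-dFBS-1 and UF-dFBS-1 were depleted of vesicles by ultracentrifugation or ultrafiltration from the same Sigma-Aldrich serum, and UC-dFBS-2 and UF-dFBS-2 from the same Gibco serum. SBI-dFBS-1 and SBI-dFBS-2 were 2 lots of a commercial depleted serum from System Biosciences. StemPRO was a defined serum- and xeno-free medium for mesenchymal stem cells with 1 sample, so its values have no replicate and were not tested. The 8 FBS-based samples shared the basal medium DMEM/F12 with Glutamax, penicillin-streptomycin and the same proportion of serum. No cells were cultured, and each sample was 1 serum or lot, so that the spread between the samples of a medium holds the difference between sera.

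Transfer RNAs carry amino acids to the ribosome and read codons through their anticodon. Of the glycine tRNAs, the GCC anticodon reads GGC and GGU, CCC reads GGG, and TCC, with a modified first base, reads mainly GGA. Fragments cut at the anticodon loop are known to be abundant in serum, and those of tRNA-Gly are among the common ones. A count here is a UMI-corrected sequencing read on a locus, and it does not say which part of the tRNA the read came from. A level is the spike-in normalized count, which is the count divided by a factor that the authors fitted to the external spike-ins of each sample. Reads, bovine in the serum samples and of unclear source in StemPRO per the study, had been placed on the human genome GRCh37. How a read that matches several near-identical tRNA copies was placed is not given in the sources used here. Values of single loci that share sequence are therefore uncertain, and totals per anticodon are given beside them. Totals and their ratios can carry the same uncertainty where loci of different anticodons have similar counts, as tRNA4-GlyCCC and tRNA133-GlyCCC have with GlyGCC loci.

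Total counts per sample ranged from 82513 in UF-dFBS-2 to 6867736 in UF-dFBS-1 among the FBS-based samples and were 6679 in StemPRO. The spike-in factor ranged from 3.78 counts per unit in SBI-dFBS-2 to 108.0 in StemPRO. A count of 3, the limit that a count of 0 allows, was thus between 0.0278 and 0.794 spike-in normalized counts. Intervals and limits of this kind cover counting error only.

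Nearly all tRNA-Gly counts of the FBS-based samples lay on 2 GlyCCC loci. These were tRNA34-GlyCCC at chr16:686736-686806 on the minus strand and tRNA27-GlyCCC at chr2:70476123-70476193 on the minus strand. They held between 98.7% of the GlyCCC counts in UF-dFBS-1 and 99.98% in UC-dFBS-2, against 39.6% in StemPRO (Wilson 95% interval 32.2 to 47.5%, 61 of 154 counts). In each of the 8 FBS-based samples they ranked 1 and 2 among all 1361 loci, and in StemPRO they ranked 25 and 30.

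The spike-in normalized counts of tRNA34-GlyCCC were 82732 for FBS-1, 23459 for UF-dFBS-1 and 67347 for UC-dFBS-1, all from the Sigma-Aldrich serum. From the Gibco serum they were 18584 for FBS-2, 1401 for UF-dFBS-2 and 32607 for UC-dFBS-2. The SBI-dFBS lots reached 77762 and 172453, and StemPRO 0.296. The highest sample was SBI-dFBS-2, the lowest FBS-based sample was UF-dFBS-2, and the FBS and UF-dFBS values overlapped because UF-dFBS-1 lay above FBS-2. The level of tRNA27-GlyCCC followed it closely, and the count of tRNA34-GlyCCC over that of tRNA27-GlyCCC stayed between 1.033 in UF-dFBS-1 and 1.115 in FBS-2. All FBS-based levels of both loci were above the range of concentrations that the spike-ins covered.

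**Figure D1:**
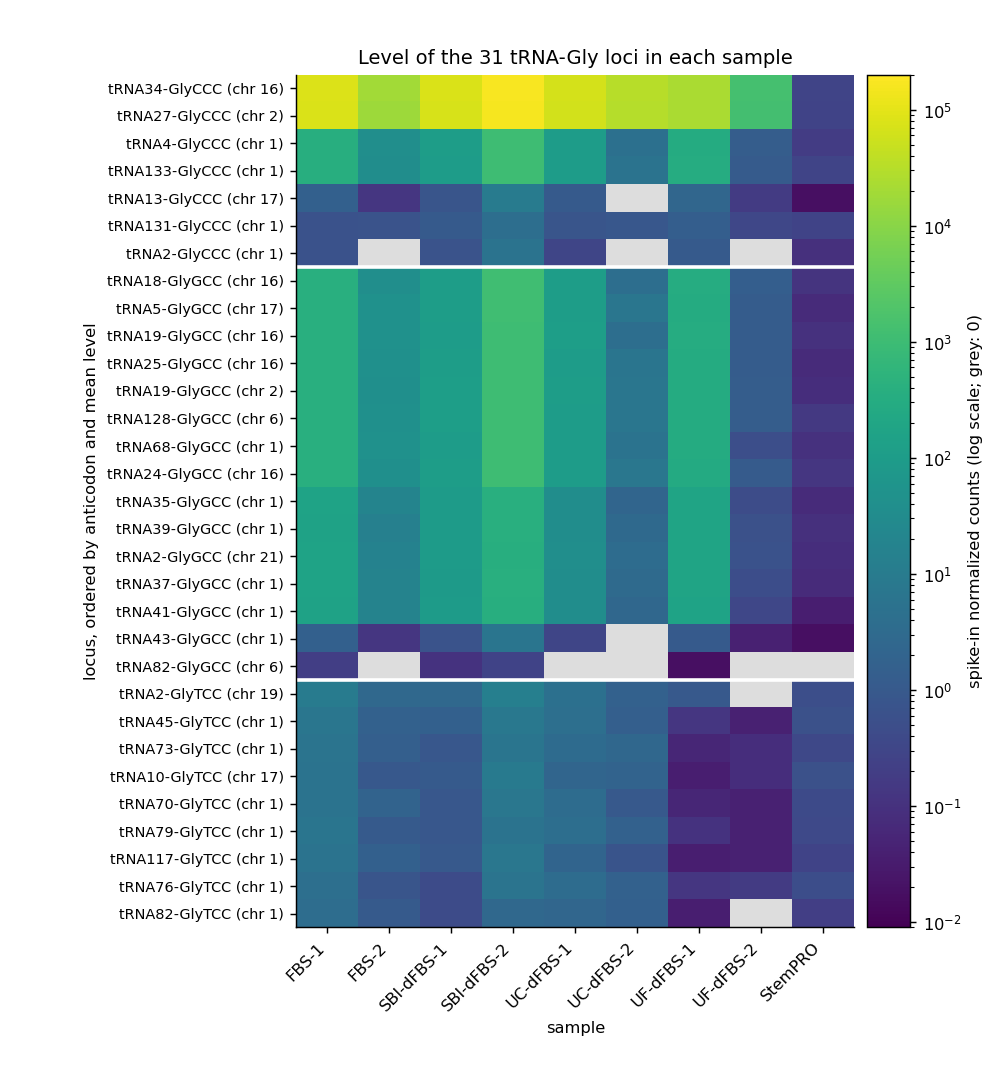
Spike-in normalized counts (colour, log scale) of the 31 tRNA-Gly loci (rows, grouped by anticodon, with white lines between CCC, GCC and TCC) in 9 samples (columns), with grey for a value of 0. tRNA34-GlyCCC and tRNA27-GlyCCC are the brightest rows in the 8 FBS-based samples, from 1265 to 172453, and the 9 GlyTCC rows darken in both UF-dFBS samples.

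The other 5 GlyCCC loci were far lower. tRNA4-GlyCCC (chr1:17188416-17188486, plus strand) and tRNA133-GlyCCC (chr1:16872434-16872504, minus strand) had 1772 and 1715 counts, respectively, in FBS-1 but 287 and 260 in FBS-2. These values lay beside those of the GlyGCC loci rather than those of tRNA34-GlyCCC and tRNA27-GlyCCC. The remaining tRNA13-GlyCCC, tRNA131-GlyCCC and tRNA2-GlyCCC had between 6 counts together in FBS-2 and UC-dFBS-2 and 269 together in UF-dFBS-1. In StemPRO these 3 loci had 41 counts together, of which 29 were on tRNA131-GlyCCC, the same number as on tRNA27-GlyCCC.

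The GlyGCC loci fell into levels that were seen in the values of FBS-1 and are given as a description. The 8 upper loci were tRNA18-, tRNA19-, tRNA24- and tRNA25-GlyGCC on chromosome 16, tRNA5-GlyGCC on chromosome 17, tRNA19-GlyGCC on chromosome 2, tRNA128-GlyGCC on chromosome 6 and tRNA68-GlyGCC on chromosome 1. They had between 1834 and 1936 counts in FBS-1, with a variance of 0.674 times the mean, where independent counting alone gives a ratio near 1. The 5 lower loci were tRNA35-, tRNA37-, tRNA39- and tRNA41-GlyGCC on chromosome 1 and tRNA2-GlyGCC on chromosome 21, with 767 to 806 counts in FBS-1.

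The mean count of the upper loci over that of the lower loci was not the same in all samples. With the Sigma-Aldrich serum it was 2.39 for FBS-1, 1.75 for UF-dFBS-1 and 2.99 for UC-dFBS-1, and with the Gibco serum 2.62 for FBS-2, 2.36 for UF-dFBS-2 and 2.06 for UC-dFBS-2. It was 1.15 for SBI-dFBS-1, 2.84 for SBI-dFBS-2 and 1.43 for StemPRO. The levels came close to each other in SBI-dFBS-1, with 925 to 1067 counts on the upper and 846 to 903 on the lower loci, while the other lot of the same product kept them apart, with 3954 to 4232 and 1389 to 1474. In UF-dFBS-1, the deepest sample, the upper loci spread beyond counting error, from 15863 to 17417 counts with a variance of 17.1 times the mean. The last 2 GlyGCC loci were hardly seen, as tRNA43-GlyGCC had at most 61 counts and tRNA82-GlyGCC on chromosome 6 at most 1 count in any sample.

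The 9 GlyTCC loci had 18 to 49 counts each in FBS-1 and 6 to 21 in FBS-2. The most abundant was tRNA2-GlyTCC (chr19:4724082-4724153, plus strand), whose spike-in normalized counts were 10.1 for FBS-1, 1.01 for UF-dFBS-1 and 4.74 for UC-dFBS-1, and 2.82 for FBS-2, 0 for UF-dFBS-2 and 1.76 for UC-dFBS-2. The SBI-dFBS lots had 2.65 and 13.8 and StemPRO 0.509. It was followed by tRNA45-, tRNA73- and tRNA70-GlyTCC on chromosome 1 and tRNA10-GlyTCC on chromosome 17. In UF-dFBS-1 this locus stood apart from the others of its anticodon, with 56 of 88 GlyTCC counts, while the other 8 loci had 2 to 7 counts each.

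On chromosome 1, 12 loci lay within 91.0 kb (chr1:161409961-161500974), 6 GlyGCC and 6 GlyTCC, mostly in alternation. The neighbours tRNA82-GlyTCC and tRNA35-GlyGCC start 3133 bp apart, and their levels in FBS-1 were 3.72 and 160 spike-in normalized counts. In FBS-1 all the GlyGCC loci but tRNA43-GlyGCC exceeded each GlyTCC locus of the stretch. In StemPRO the order was turned, with 0.204 to 0.602 on the GlyTCC loci and 0.0185 to 0.102 on the GlyGCC loci. These are 22 to 65 counts per GlyTCC locus and 2 to 11 per GlyGCC locus in 1 library, so the GlyGCC values are near the floor.

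**Figure D2:**
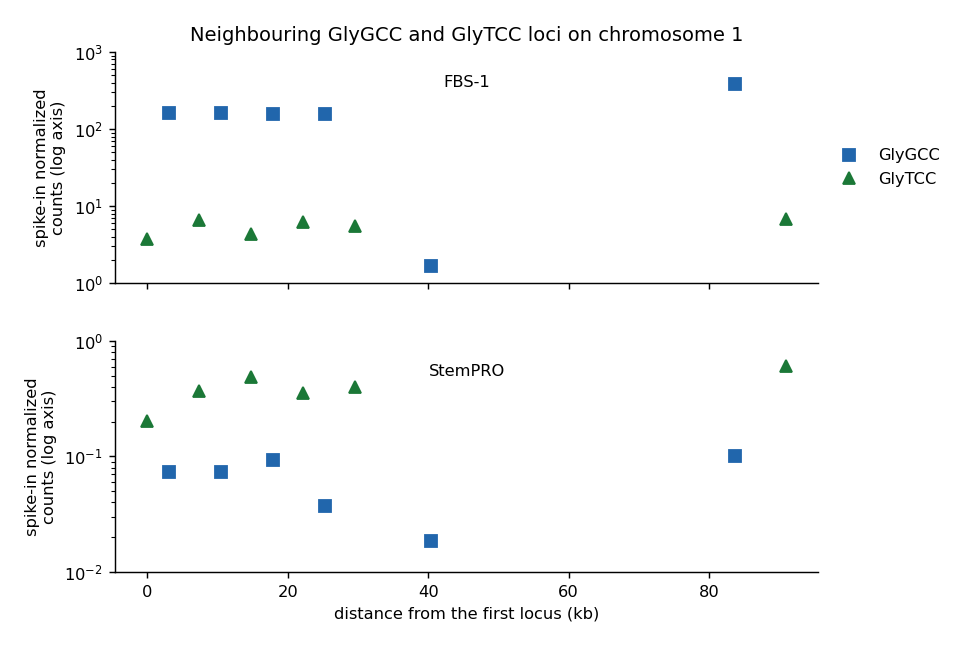
Spike-in normalized counts (y, log axis, different range in each panel) of 12 neighbouring loci on chromosome 1 against their distance in kb from the first locus (x), in FBS-1 (top) and StemPRO (bottom), with blue squares for GlyGCC and green triangles for GlyTCC. In FBS-1 the squares lie above the triangles except for tRNA43-GlyGCC at 1.65. In StemPRO all triangles lie above all squares, which rest on 2 to 11 counts each.

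The anticodons were compared within samples. Summed over its loci and with sample 1 of a medium before sample 2, GlyCCC had spike-in normalized totals of 158831 and 35331 for FBS, 46792 and 2669 for UF-dFBS, 129456 and 62553 for UC-dFBS, 150446 and 334033 for SBI-dFBS, and 1.43 for StemPRO. In the same order, GlyGCC totals were 3882 and 431 for FBS, 3286 and 12.0 for UF-dFBS, 1049 and 62.4 for UC-dFBS, 1371 and 10501 for SBI-dFBS, and 1.20 for StemPRO. GlyTCC totals were 54.7 and 13.5 for FBS, 1.59 and 0.500 for UF-dFBS, 30.9 and 14.5 for UC-dFBS, 9.95 and 65.4 for SBI-dFBS, and 3.81 for StemPRO. The order CCC, GCC, TCC held in 8 of 8 FBS-based samples and not in StemPRO.

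GlyCCC exceeded GlyGCC by 6.50 on the log2 scale (SD 1.88, n = 8, exact sign-flip permutation p = 0.0078, two-sided, adjusted over 3 tests 0.0078), with ratios from 14.2 in UF-dFBS-1 to 1002 in UC-dFBS-2. GlyGCC exceeded GlyTCC by 6.04 (SD 2.59, n = 8, same exact permutation p), with ratios from 4.30 in UC-dFBS-2 to 2062 in UF-dFBS-1. The samples share sera, and over 4 sera or lots the same exact permutation test cannot go below p = 0.125, which it gave for each ratio. These are ratios of read totals over loci of nearly the same length, 71 bp for GCC and CCC and 72 bp for TCC.

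**Figure D3:**
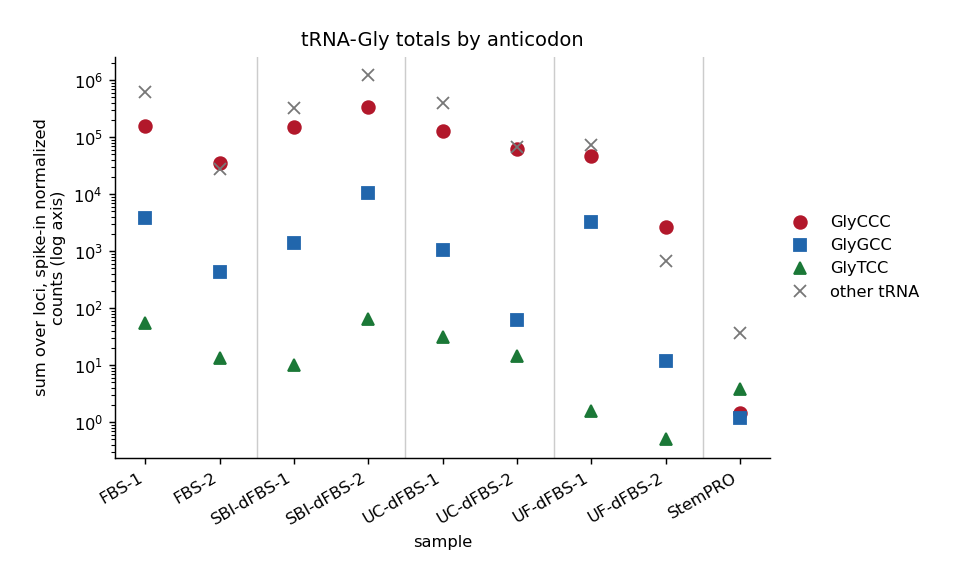
Sum of spike-in normalized counts (y, log axis) over the loci of each anticodon and over all other tRNA loci in 9 samples (x), 1 point per sample. GlyCCC lies above GlyGCC and GlyGCC above GlyTCC in the 8 FBS-based samples, while in StemPRO GlyTCC, at 3.81, lies above GlyCCC at 1.43 and GlyGCC at 1.20.

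In StemPRO the tRNA-Gly counts were few and of another composition. Of 696 counts, 412 were GlyTCC (59.2%, Wilson 95% interval 55.5 to 62.8%), 154 were GlyCCC (22.1%, 19.2 to 25.4%) and 130 were GlyGCC (18.7%, 15.96 to 21.7%). In the FBS-based samples GlyTCC made up between 0.0032 and 0.0379% of tRNA-Gly counts and GlyCCC between 93.4 and 99.9%. The most abundant loci in StemPRO were tRNA10-GlyTCC with 66 counts, tRNA45-GlyTCC with 65 and tRNA2-GlyTCC with 55.

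On the spike-in scale, GlyTCC in StemPRO was 3.81 (exact Poisson 95% interval 3.45 to 4.20), which was above the 1.59 of UF-dFBS-1 (1.28 to 1.96) and the 0.500 of UF-dFBS-2 (0.258 to 0.873) and below the other 6 samples. It was 11.2% of the FBS mean, against 0.0558% for GlyGCC, 0.00147% for GlyCCC and 0.0111% for all other tRNA. Among 49 tRNA isoacceptors, which are tRNAs grouped by amino acid and anticodon, GlyTCC ranked 2 by total in StemPRO and between 20 and 33 in the FBS-based samples. These values come from 1 StemPRO library and were not tested.

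Ultrafiltration was compared with untreated serum first over all 4 samples and then within each serum. GlyTCC was the anticodon whose UF-dFBS totals of 1.59 and 0.500 lay below both FBS totals, 54.7 and 13.5, and below the other 6 FBS-based samples, the lowest of which was SBI-dFBS-1 at 9.95. The difference from those 6 samples was -4.78 on the log2 scale (SE 0.96, exact permutation p = 0.071, the smallest possible with 2 against 6 samples, 0.75 after adjustment over 75 tests). It depended on the scale, and was -2.22 in raw counts and -0.53 in shares of all deposited counts of a sample. GlyGCC differed by -2.44 (SE 4.18, exact permutation p = 0.429) and GlyCCC by -3.36 (SE 2.12, exact permutation p = 0.143), and for both UF-dFBS-1 lay within the range of the other samples.

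Within the sera and on the spike-in scale, UF-dFBS held 0.0291 of the GlyTCC of FBS with the Sigma-Aldrich serum (95% interval 0.0226 to 0.0372, 88 against 265 counts) and 0.0369 with the Gibco serum (0.0184 to 0.0673, 12 against 101 counts). These intervals, exact and for counting error only, overlap, but tRNA2-GlyTCC held 56 of the 88 counts. Without that locus, an alternative chosen after seeing the data, the ratios were 0.0130 (0.0087 to 0.0189, 32 against 216 counts) and 0.0466 (0.0231 to 0.0859, 12 against 80 counts), and the intervals did not overlap. GlyGCC, in contrast, was at 0.846 of FBS with the Sigma-Aldrich serum and 0.0278 with the Gibco serum, and GlyCCC was at 0.295 and 0.0755. All other tRNA together was at 0.119 and 0.0241. With the Sigma-Aldrich serum, GlyGCC and GlyCCC thus kept a larger share after ultrafiltration than the total of other tRNA, and GlyTCC a smaller one. That total was mostly tRNA-His, with 498743 of 619984 spike-in normalized counts in FBS-1, and tRNA-His was at 0.0524 of FBS. With the same serum tRNA-Glu was at 0.153 and tRNA-Val at 0.807, so that GlyCCC at 0.295 lay between them. With the Gibco serum, GlyGCC, GlyCCC and GlyTCC all lay above other tRNA at 0.0241, and GlyTCC at 0.0369 lay above GlyGCC at 0.0278. The counting interval of GlyTCC with that serum, 0.0184 to 0.0673, included the values of other tRNA and of GlyGCC. The lower share of GlyTCC than of other tRNA was thus seen with the Sigma-Aldrich serum only, in 1 sample each and without a test.

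Locus by locus, all 9 GlyTCC loci were lower in both UF-dFBS samples than in both FBS samples, as were 0 of 14 GlyGCC and 0 of 7 GlyCCC loci. Among the 363 loci that reached 10 counts in 2 or more samples, 50.1% were lower in this way, which is the background for the 9 of 30 tRNA-Gly loci. Apart from tRNA2-GlyTCC, the GlyTCC loci reached that limit only in samples other than UF-dFBS. In edgeR's quasi-likelihood test with spike-in library sizes over the 8 FBS-based samples, 0 of 30 tRNA-Gly loci passed an adjusted p of 0.05, as did 0% of all loci. At an unadjusted p under 0.05 there were 8 of 30 tRNA-Gly loci, or 26.7%, against 29.8% of all loci. DESeq2 with spike-in size factors called 8 of 30, against 37.2% of all loci, and with its own size factors 0, against 0.275%. These shares of tRNA-Gly loci were near or below those of all loci.

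With the serum as replicate block in edgeR, which compares each UF-dFBS sample with FBS of the same serum over 6 samples, 9 of 26 tRNA-Gly loci were called, all lower and all GlyTCC. All 213 calls among all loci were lower too. GlyTCC loci other than tRNA2-GlyTCC had at most 7 counts in UF-dFBS and passed the filter only through FBS and UC-dFBS samples. tRNA13-GlyCCC, at 1.65 in FBS-1 and 2.37 in UF-dFBS-1 on the spike-in scale, did not pass it. Each serum had 1 sample per medium. The share called was 34.6% of tRNA-Gly loci and 66.1% of all 322 loci tested. The median log2 change of the 9 GlyTCC loci was -5.58, of 13 GlyGCC loci -2.22, of 4 GlyCCC loci -2.35 and of all loci -3.66. Taken against that median, GlyTCC lay 1.92 below, GlyGCC 1.45 above and GlyCCC 1.32 above. In the fit over the 8 samples with spike-in library sizes, the medians were -5.63 for GlyTCC, -0.47 for GlyGCC, -0.33 for GlyCCC and -3.63 for all loci. With total counts and TMM over the same samples, the median of all loci was -0.57, the GlyTCC median kept its sign at -2.22, and the GlyGCC and GlyCCC medians turned to 1.52 and 1.68.

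The fitted changes of the called loci ran from tRNA117-GlyTCC, at -6.40 (SE 1.08), to tRNA76-GlyTCC, at -3.87 (SE 0.96). Except for tRNA2-GlyTCC, these loci entered the test only through samples in which they were high. Their adjusted p-values are therefore no support for a change and are not given. tRNA117-GlyTCC had 28 counts in FBS-1 against 2 in UF-dFBS-1, and 12 in FBS-2 against 1 in UF-dFBS-2. tRNA76-GlyTCC had 21 and 6 counts in FBS and 7 and 4 in UF-dFBS, where the factor of the UF-dFBS samples was larger. tRNA2-GlyTCC changed by -4.14 (SE 0.90, edgeR adjusted p = 5.18e-05), with the 56 counts of UF-dFBS-1 beside 0 in UF-dFBS-2. With UF-dFBS counts of at most 7 at the other loci, the fitted changes depend on the prior count of the model.

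**Figure D4:**
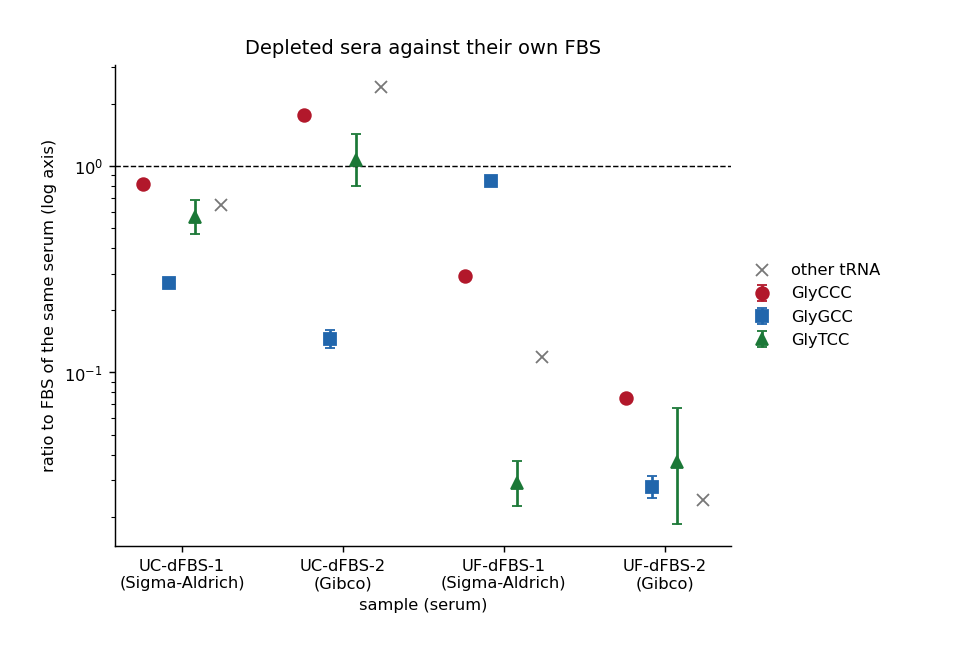
Ratio of UC-dFBS and UF-dFBS to the FBS of the same serum in spike-in normalized counts (y, log axis, dashed line at 1) for GlyCCC, GlyGCC, GlyTCC and all other tRNA (symbols), for each depleted sample with its serum (x). Bars are exact 95% intervals of the Gly ratios for counting error only, most of them smaller than the symbol. GlyGCC is the lowest symbol in both UC-dFBS samples, at 0.270 and 0.145, and GlyTCC is near 0.03 in both UF-dFBS samples while GlyGCC moves from 0.846 to 0.0278.

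Ultracentrifugation left another pattern. GlyGCC was at 0.270 of FBS with the Sigma-Aldrich serum (counting interval 0.263 to 0.278) and 0.145 with the Gibco serum (0.131 to 0.160). The 13 GlyGCC loci that could be compared ranged from 0.220 to 0.299 and from 0.0905 to 0.232. These 13 loci may share reads and are not independent members. The share of all loci below 1 in both sera was not determined. The median log2 change of all loci was negative too, at -0.49 with the serum as replicate block. GlyCCC was at 0.815 and 1.77 and GlyTCC at 0.565 and 1.07, so that both were lower with one serum and not with the other. All other tRNA was at 0.648 and 2.41. Within it, tRNA-His was at 0.642 and 7.86, tRNA-Val at 0.645 and 5.51 and tRNA-Glu at 0.671 and 1.04. A fall with both sera was not particular to GlyGCC. The isoacceptor AspGTC went from 3465 in FBS-1 to 1165 in UC-dFBS-1, and from 932 in FBS-2 to 344 in UC-dFBS-2. tRNA4-GlyCCC and tRNA133-GlyCCC, whose counts resembled those of GlyGCC, had the 2 lowest ratios among the 4 GlyCCC loci compared, while tRNA34-GlyCCC was at 0.814 and 1.75.

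The ratio of GlyCCC to GlyGCC was 123 for UC-dFBS-1 against 40.9 for FBS-1, and 1002 for UC-dFBS-2 against 82.0 for FBS-2. The groups did not overlap, and the ratio was 3.02 and 12.2 times that of FBS within the sera (log2 difference 2.60, SE 1.59, exact permutation p = 0.33, the smallest possible, 0.806 after adjustment over 75 tests). The difference was 0.074 on the log2 scale without tRNA34-GlyCCC and tRNA27-GlyCCC, which held nearly all GlyCCC counts. What remained lay mostly on tRNA4-GlyCCC and tRNA133-GlyCCC, whose counts resembled those of GlyGCC loci. A value near 0 was thus built in. The GlyGCC totals themselves overlapped, since UC-dFBS-1 at 1049 was above FBS-2 at 431, and 0 of 30 tRNA-Gly loci were lower in both UC-dFBS samples than in both FBS samples, against a background of 19.3%. In edgeR, 0 of 30 tRNA-Gly loci and 0% of all loci were called, with 0 tRNA-Gly loci at an unadjusted p under 0.05 (3.31% of all loci). DESeq2 called 0 too, against 0% of all loci with spike-in or its own size factors. With the serum as replicate block, 0 of 26 were called against 2.48% of all loci, and 1 of 26 had an unadjusted p under 0.05 against 11.5% of all loci. The lowest adjusted p was 0.410, of tRNA35-GlyGCC at -2.84 (SE 1.39, edgeR). The median change of the GlyGCC loci in that fit was -2.47, against -0.49 for all loci, and with TMM over the 8 samples it was -1.20 against 0.14.

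The SBI-dFBS lots were unlike each other. SBI-dFBS-1 had 0.131 of the GlyGCC, 0.450 of the GlyCCC and 0.152 of the GlyTCC of SBI-dFBS-2. GlyCCC totals of both lots lay above FBS-2 and only that of SBI-dFBS-2 lay above FBS-1, giving a log2 difference from FBS of 1.58 (SE 1.23, exact permutation p = 0.667, 0.962 adjusted over 75 tests). The GlyTCC to GlyGCC ratio was below both FBS samples in both lots, by 1.65 on the log2 scale (SE 0.59, exact permutation p = 0.33, the smallest possible). In edgeR 0 of 30 loci were called, against 0% of all loci, with 0 at an unadjusted p under 0.05 (1.1% of all loci). DESeq2 called 0 too, against 0% of all loci with spike-in size factors and 0.275% with its own. Of the 30 loci, 2 were higher in both lots than in both FBS samples, against 22.3% of all loci, and these were tRNA131-GlyCCC and tRNA2-GlyCCC, named after their values were seen, with at most 22 counts in any of the 4 samples.

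The sera differed most in GlyGCC among the 3 anticodons. The GlyGCC totals of the Sigma-Aldrich samples, 3882 for FBS-1, 3286 for UF-dFBS-1 and 1049 for UC-dFBS-1, all lay above those of the Gibco samples, which were 431, 12.0 and 62.4 in the same order of media. The geometric mean was 34.6 times higher (log2 difference 5.11, SE 1.61, exact permutation p = 0.1, the smallest possible with 3 against 3, 0.75 adjusted over 75 tests), and 9.01, 16.8 and 274 times higher within FBS, UC-dFBS and UF-dFBS. GlyCCC was 5.46 times higher (log2 SE 1.502, exact permutation p = 0.2) and GlyTCC 3.02 times higher (log2 SE 2.25, exact permutation p = 0.5), and these groups overlapped. Within media the ratios were 4.50, 2.07 and 17.5 for GlyCCC and 4.04, 2.13 and 3.19 for GlyTCC.

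In edgeR with the medium as a term, 18 of 26 tRNA-Gly loci were higher with the Sigma-Aldrich serum, or 69.2%, against 62.1% of all 280 loci, a share near the background. By anticodon the calls were 13 of 13 GlyGCC, 2 of 4 GlyCCC and 3 of 9 GlyTCC loci, and no locus was called lower. Of the 26 loci, 15 were higher in all 3 Sigma-Aldrich samples than in all 3 Gibco samples, against 44.3% of all loci, and these were 13 GlyGCC and 2 GlyCCC. GlyGCC loci within a level had near-equal counts, and these 2 GlyCCC loci lay beside them. Such loci may share reads, so these numbers of loci are not numbers of independent members.

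The largest called change was that of tRNA18-GlyGCC (chr16:70822597-70822667, plus strand) at 5.23 (SE 1.57, edgeR adjusted p = 0.0041), with 399.7 spike-in normalized counts in FBS-1, 315 after ultrafiltration and 113 after ultracentrifugation against 39.2, 1.42 and 3.96 with the Gibco serum. The 2 GlyCCC loci that were called were tRNA4-GlyCCC at 5.03 (SE 1.54, edgeR adjusted p = 0.0050) and tRNA133-GlyCCC at 5.00. tRNA34-GlyCCC had a log2 change of 2.40 (SE 1.99, edgeR adjusted p = 0.280), and its groups overlapped, since UC-dFBS-2 at 32607 lay above UF-dFBS-1 at 23459. DESeq2 with spike-in size factors did call it (adjusted p = 0.0119), as it did tRNA27-GlyCCC. That fit called 22 of 26 tRNA-Gly loci, which were 13 GlyGCC, 4 GlyCCC and 5 GlyTCC loci, or 84.6% against 80.4% of all loci, and with its own size factors DESeq2 called 16 of 26, against 52.5% of all loci. The called GlyTCC loci were tRNA2-GlyTCC at 2.39, tRNA79-GlyTCC at 1.79 and tRNA45-GlyTCC at 1.73.

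The median log2 change of all 280 loci between the sera was 3.13, and that of GlyGCC loci was 4.82, of GlyCCC loci 3.72 and of GlyTCC loci 1.43. GlyGCC thus lay 1.69 above and GlyTCC 1.69 below the median of all loci, and with total counts and TMM in place of the spike-ins GlyGCC lay 1.71 above and GlyTCC 1.37 below it. Under TMM the median of all loci moved to -0.29 and the GlyTCC median to -1.66, so that the direction of GlyTCC turned. TMM called 0 of 26 tRNA-Gly loci, against 39.3% of all loci, with 50 higher and 60 lower in place of 174 and 0. The calls also rested on single samples, and 1 medium no longer compares the sera when a sample is left out. Without FBS-1, 0 of 20 tRNA-Gly loci were called, against 5.21% of all loci, and without FBS-2 1 of 24, against 28.8%. Without UC-dFBS-1 8 of 20 were called, against 38.9% of all loci, and without UC-dFBS-2 6 of 22, against 57%. Without UF-dFBS-1 or UF-dFBS-2 there were 21 of 26, or 80.8%, against 56.2 and 66.8% of all loci. The tRNA-Gly share was thus below that of all loci without FBS-1, FBS-2 or UC-dFBS-2.

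**Figure D5:**
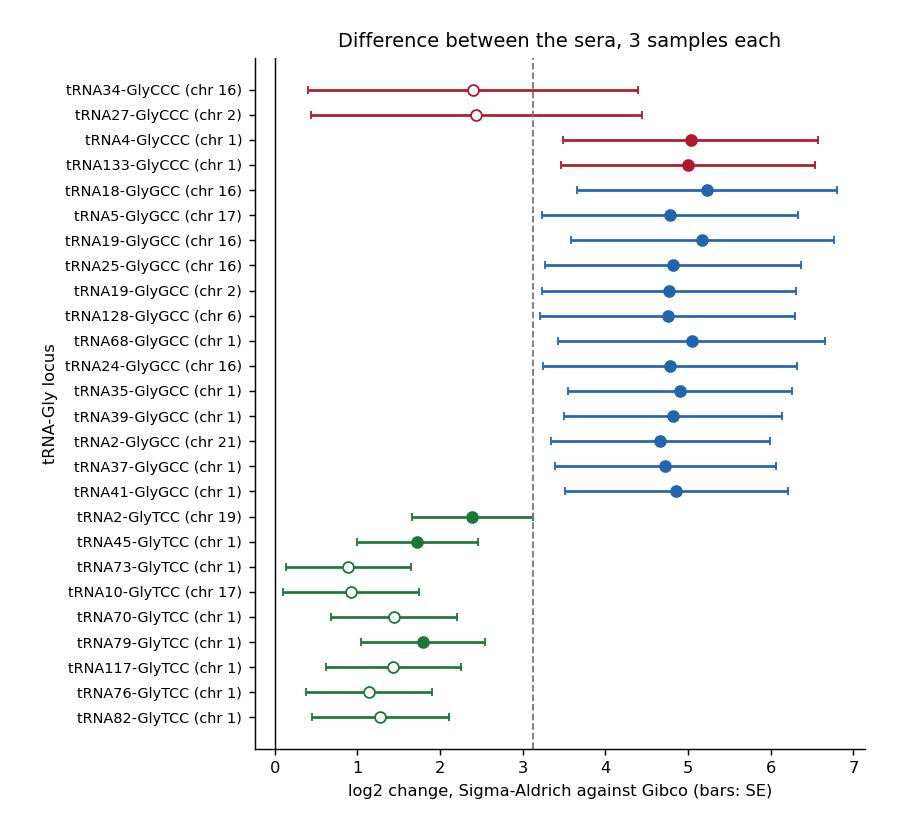
Log2 change of 26 tRNA-Gly loci (rows) with the Sigma-Aldrich serum against the Gibco serum (x), from edgeR with the medium as a term over 6 samples. Bars are the SE derived from the F statistic of the test. Filled points passed an adjusted p of 0.05, red is GlyCCC, blue GlyGCC and green GlyTCC, and the dashed line is the median of all loci at 3.13. The 13 GlyGCC points lie between 4.66 and 5.23, right of the dashed line, and the 9 GlyTCC points lie left of it.

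As a share of all tRNA counts, tRNA-Gly was lower with the Sigma-Aldrich serum, although its level was higher. The shares were 20.8% for FBS-1, 40.5% for UF-dFBS-1 and 24.5% for UC-dFBS-1, against 56.5% for FBS-2, 80.1% for UF-dFBS-2 and 48.5% for UC-dFBS-2. The groups did not overlap, and the Sigma-Aldrich share was 0.455 times the Gibco share (exact permutation p = 0.1, the smallest possible, 0.75 adjusted over 75 tests). Within each serum the share was highest after ultrafiltration. The SBI-dFBS lots were at 31.9 and 22.1% and StemPRO at 15.2% (Wilson 95% interval 14.2 to 16.2%).

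The tRNA-Gly total was also set against those of other amino acids, first tRNA-Glu, another tRNA whose fragments are well known in serum. The ratio of tRNA-Gly to tRNA-Glu was 7.80 in UF-dFBS-1 and 23.5 in UF-dFBS-2, and in the other 6 FBS-based samples it was between 1.91 in FBS-2 and 4.63 in UC-dFBS-1. The groups did not overlap, at a log2 difference of 2.22 (SE 0.82, exact permutation p = 0.071, the smallest possible, 0.75 adjusted over 75 tests). After ultrafiltration tRNA-Glu was at 0.153 of FBS with the Sigma-Aldrich serum and 0.00611 with the Gibco serum, and tRNA-Val, at 0.807 and 0.0683, was nearer to FBS than tRNA-Glu in both, as tRNA-Gly was. The ratio of tRNA-Gly to tRNA-Val after ultrafiltration was 1.25 times that of the other 6 samples with overlap (exact permutation p = 0.857), and 0.381 and 1.10 times that of FBS within the sera. Between the sera, the ratio to tRNA-Val was lower with the Sigma-Aldrich serum in each medium, at 0.0710 of the Gibco ratio (exact permutation p = 0.1, the smallest possible, 0.75 adjusted), as tRNA-Val differed more between the sera than tRNA-Gly did. The ratio to tRNA-His overlapped after ultrafiltration and between the sera.

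The isoacceptor totals that ran most like GlyGCC over the 8 FBS-based samples, out of 44 compared, were ArgTCT (Pearson r of log2 totals 0.955), ArgCCG (0.948) and LysTTT (0.938). The r between GlyGCC and GlyCCC was 0.839, between GlyCCC and GlyTCC 0.871 and between GlyGCC and GlyTCC 0.621. These values are a description, since all totals share the libraries, the sera and the spike-in factors.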

How the data were processed

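The authors trimmed reads with cutadapt 1.11, collapsed them by UMI, and mapped them with Bowtie2 2.2.2 without indels to human GRCh37, per the study's methods. The deposited counts are UMI-corrected reads per locus, without normalization. The deposited spike-in normalized signal is each count divided by 1 factor per sample that the authors fitted to miRNA-sized spike-ins, which was checked on the values. The spike-ins are shorter than most tRNA reads, and the error of their fit was not analysed here.

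Totals, shares and exact permutation tests came from scipy 1.17.1, pandas 2.3.3 and numpy 2.4.6 under python 3.11.15. Loci were fitted in R 4.3.3 by edgeR 4.0.16 (its quasi-likelihood test, Benjamini-Hochberg adjustment over all loci, threshold 0.05) with library sizes set to the spike-in factors. The SE given with an edgeR change was derived afterwards, as the absolute log2 change over the square root of the F statistic of the test. It is approximate. The medium fits held 8 samples and loci with at least 10 counts in at least 2 of them, and the supplier fit held 6 samples and loci with at least 10 counts in at least 3, with the medium as a term. DESeq2 1.42.0, TMM, other filters and each sample left out were alternatives, and the scripts were tested on simulated data. Permutation tests with 2 against 2, 2 against 6 and 3 against 3 samples cannot go below 0.33, 0.071 and 0.1. As nothing says that repeat preparations of a serum were made, p-values measure the spread between these samples.

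The labels and the methods say that UC-dFBS and UF-dFBS came from the same sera as FBS, which pairs the samples. Differences between sample 1 and 2 correlated across 363 loci, with r = 0.574 for UF-dFBS with UC-dFBS, 0.604 for UF-dFBS with FBS and 0.759 for UC-dFBS with FBS. For the SBI-dFBS lots, which are not paired with these sera, r was -0.564 with FBS, -0.516 with UC-dFBS and -0.416 with UF-dFBS. Correlations of similar size thus also arose without pairing, and the pairing rests on the labels and methods. Single loci were named if among the 5 most abundant of an anticodon, called in a fit, among the 3 with most counts in StemPRO, or largest or smallest in a comparison, and others are marked. The members and lists were chosen with earlier results of these data known. miRNA counts entered only the total counts of a sample, and through them the shares of all deposited counts and the common scale of edgeR library sizes. The authors' bovine mapping was not used here.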

Additional observations from a re-analysis of the deposited data

Results flagged for a closer look

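The effect of a depletion method ran in opposite directions in the Sigma-Aldrich and Gibco sera for the following measures, each with 1 sample per serum and medium, so that the difference was not tested. All values are log2 changes from FBS of the same serum, the Sigma-Aldrich serum first. After ultracentrifugation the tRNA-Gly total differed by -0.32 and 0.81, the GlyCCC total by -0.30 and 0.82, the GlyTCC total by -0.82 and 0.10, and the tRNA-Gly share of tRNA counts by 0.24 and -0.22. After ultrafiltration the GlyCCC to GlyGCC ratio differed by -1.52 and 1.44, and the GlyTCC to GlyGCC ratio by -4.86 and 0.41. The GlyGCC total was lower than in FBS in both sera with both methods.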

How the results depend on the processing

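Taken as a share of all deposited counts in place of the spike-in scale, 12 differences of totals changed sign. These were SBI-dFBS against FBS for tRNA-Gly (-0.18), GlyGCC (-0.21) and GlyCCC (-0.18), UF-dFBS against FBS for tRNA-Gly (0.93), GlyGCC (0.94) and GlyCCC (0.90), UF-dFBS against the other 6 samples for the same (0.92, 1.81 and 0.89), and Sigma-Aldrich against Gibco for tRNA-Gly (-1.03), GlyCCC (-1.07) and GlyTCC (-1.92). Raw counts gave 0.12 for GlyGCC in UF-dFBS against the other 6. Ratios of mean totals gave -0.040 (tRNA-Gly) and -0.016 (GlyCCC) for UC-dFBS and 0.14 for GlyTCC in SBI-dFBS. Without tRNA34-GlyCCC and tRNA27-GlyCCC, a choice made after seeing the data, UC-dFBS against FBS gave -2.21 (tRNA-Gly) and -2.26 (GlyCCC), and the GlyCCC to GlyGCC ratio gave 0.28 and 0.25 for UF-dFBS against FBS and the other 6, 0.074 for UC-dFBS against FBS in place of 2.60, and -0.046 between the sera in place of -2.66. Without the most abundant locus of each anticodon that ratio gave 0.0057 and the tRNA-Gly share in UC-dFBS -0.025. With tRNA34-GlyCCC and tRNA27-GlyCCC both left out, the GlyCCC counts lay mostly on loci with counts like those of GlyGCC. Changes near 0 in their ratio were thus built in. Over 4 sera the anticodon ratios were 6.30, 6.44 and 12.73, past no threshold.

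Leaving out 1 sample gave ranges that include 0 for UC-dFBS (tRNA-Gly -0.85 to 1.34, GlyCCC -0.82 to 1.35, GlyTCC -1.37 to 0.64, share -0.71 to 0.73), SBI-dFBS (GlyGCC -0.033 to 3.14, GlyTCC -1.45 to 1.26, GlyCCC to GlyGCC -0.86 to 0.92, share -1.09 to 0.35), UF-dFBS (GlyGCC -6.75 to 1.35, GlyCCC to GlyGCC -2.02 to 1.94, GlyTCC to GlyGCC -5.44 to 0.98), UF-dFBS against the other 6 (-6.49 to 1.61, -2.90 to 1.07 and -5.55 to 0.88) and GlyTCC between the sera (-0.011 to 3.16). GlyTCC in UF-dFBS against FBS, at -4.93, ranged from -5.94 to -3.92 when 1 sample was left out, but was -2.33 in raw counts and -1.29 as a share of all deposited counts, and against the other 6 it moved from -4.78 to -2.22 and -0.53. Loci called between the sera ranged from 0 to 21 when 1 sample was left out, against 5.21 to 66.8% of all loci. They were 22 in DESeq2 with spike-in factors (80.4% of all loci), 16 with its own factors (52.5%), 0 under TMM (39.3%) and 0 without the medium term (0%). UF-dFBS against FBS gave 9 calls with the replicate block (66.1% of all loci) and 8 in DESeq2 with spike-in factors (37.2%), and the block changed no other call. DESeq2 with its own factors and TMM turned tRNA2-GlyTCC between the sera (-0.47 and -0.67) and tRNA76-GlyTCC in UF-dFBS (1.02 and 0.76). The causes were not tested, and leaving out a sample also lowers the number of samples. GlyTCC in UF-dFBS-2 rests on 12 counts, which limits its precision.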
